A study of Mus musculus with 8 samples.

Results

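Y RNA fragments are the small RNAs of sperm that the deposited annotation assigns to a Y RNA. Members were all distinct sequences whose annotation holds YRNA and no name of a miRNA, tRNA or rRNA. They numbered 689 of the 5724730 distinct fragments in the 8 libraries. Of these, 338 came from Rny1 and 351 from Rny3, and no other Y RNA was named. Mature sperm was taken from the caudae epididymides of 8 mice, 1 library per mouse. The activated group held 4 Agrp Cre/+ mice and the control group 4 Agrp +/+ mice. All 8 had been injected on both sides of the arcuate nucleus, at 8 weeks of age, with an adeno-associated virus that carries hM3Dq-mCherry, an excitatory receptor for the drug clozapine-N-oxide (CNO). Expression of the receptor needs Cre, so CNO excites AgRP neurons, the hunger neurons of that nucleus, in the activated group, while control mice had the virus and the drug without Cre. At 3 weeks after surgery, CNO was given at 1 mg/kg with food removed for 1 h, and sperm was collected 4 h later. The comparison asks whether sperm small RNAs differ after AgRP neurons are activated.

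Y RNAs are short noncoding RNAs made by RNA polymerase III. They fold into a stem, in which the 5' and 3' ends pair, with a loop between, and they bind the proteins Ro60 and La. La holds the run of U at the 3' end. Fragments of both ends are known from dying cells and from body fluids, semen among them. Mice have the genes Rny1 and Rny3.

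The transcripts were taken from GENCODE M21 (build GRCm38, which is mm10). Rny1 is a gene of 112 bases and Rny3 one of 102 bases, both on chromosome 6, and each is a single noncoding exon. After alignment 80 of 112 columns were identical (71.4%), and 19 of the first 30 bases were the same. All 689 members matched the sense strand of their transcript exactly, each at 1 place. The count of members shared by both transcripts was 0, as was the count of antisense matches. Of the members, 67 also matched transcripts of 11 other GENCODE genes, with 0.678% of the Y RNA reads and 0 of the fragments tested below. Copies elsewhere in the genome were not analysed here.

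Library totals were between 9297271 reads (control replicate 3) and 23123740 reads (control replicate 2). Y RNA took 15084, 10565, 11362 and 9463 of these reads in activated samples, against 10369, 22971, 13332 and 24874 in control samples. Values below are RPM, that is reads per 1000000 reads of the library. A count of 0 allows up to 3 counts, or 0.130 to 0.323 RPM, for counting error only. Reads were amplified without molecular identifiers, so the spread between mice was taken as the error.

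Control replicate 4 stood apart from the other libraries. Smooth muscle miRNAs (miR-143, miR-145a, miR-133a and miR-1a) summed to 35309 RPM there and to between 138 and 393 RPM in the other 7. Epithelial miRNAs (the miR-200 family, miR-203 and miR-205) summed to 19420 RPM there and to at most 3476 RPM elsewhere. It was also the library richest in Y RNA, so results are given with and without it where both were computed. Control replicate 3, the next richest in Y RNA, also differed from the rest. Reads of 35 to 39 nt were 20.6% of its reads and 4.40% to 11.8% elsewhere, and 59.1% of its reads matched the genome, against 63.4% to 77.7%. The 8 miRNAs listed for sperm and testis had reads in every library and summed to between 68539 and 138277 RPM, lowest in control replicate 3. Most of that sum was miR-191 (42492 to 84957 RPM), which was also lowest in control replicate 3. All 8 miRNAs were higher in the mean of activated sperm, opposite to Y RNA, also without control replicate 4, and this was not tested. The first principal component of the fragment counts, with 53.9% of the variance, set activated 1 and 4 and control 2 and 4 apart from the others. Fragments whose annotation includes mitochondrial rRNA were 1.80% to 2.24% of reads in that first set, and in the other libraries they were 7.11% to 8.35%. Both sets have 2 mice per group.

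Y RNA fragments were fewer in the mean of activated sperm, but the groups overlapped and no test passed. In total they made up 1012, 604, 769.9 and 1006 RPM in activated samples, against 835, 993, 1434 and 1734 RPM in control samples. Control replicates 3 and 4 were above all activated samples, whereas control replicates 1 and 2 lay within the activated range. The means were 848 ± 198 RPM (SD, n = 4) and 1249 ± 411 RPM (SD, n = 4), a ratio of 0.679 (two-sided exact permutation test, p = 0.171). The smallest p that 4 against 4 allows is 0.0286. Without control replicate 4 the ratio was 0.780 (exact permutation test, p = 0.314), and without control replicate 3 it was 0.714 (exact permutation test, p = 0.286). Within the first library set it was 0.740 and within the second 0.606, from 2 mice against 2, for which no test can pass. Fewer cells that carry Y RNA fragments and less of them per cell cannot be told apart.

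Rny1, the more abundant, held 93.6% to 96.7% of Y RNA reads in each library. Its level was 978, 574, 729 and 973 RPM in activated samples, against 798, 957, 1343 and 1638 RPM in control samples. Here too control replicates 3 and 4 were highest and the rest of the groups overlapped. The ratio was 0.687 (exact permutation test, p = 0.171, adjusted over 2 names 0.171), and 0.788 without control replicate 4 (exact permutation test, p = 0.343).

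Rny3 stood at 34.1, 30.4, 40.5 and 33.0 RPM in activated mice and at 37.0, 36.2, 91.3 and 95.9 RPM in control samples. Control replicates 3 and 4 held more than 2 times the level of any other sample, and the other 6 lay close together. The ratio was 0.530 (exact permutation test, p = 0.143, adjusted 0.171), and 0.629 without control replicate 4 (exact permutation test, p = 0.143, adjusted 0.286). Per base of transcript, Rny1 exceeded Rny3 by between 13.4-fold and 26.9-fold in the 8 libraries.

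**Figure D1:**
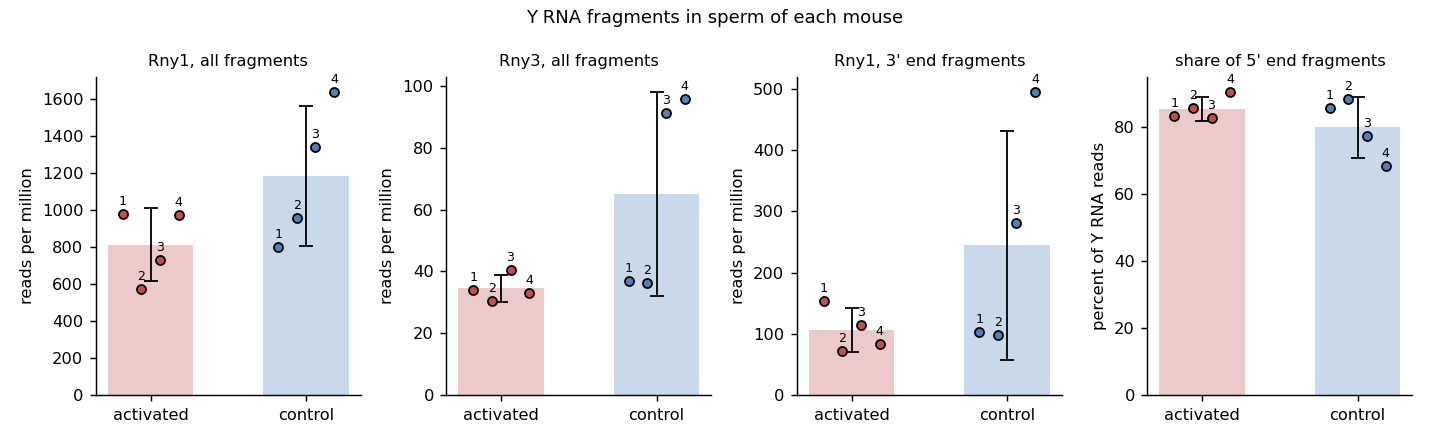
RPM of Rny1, Rny3 and the 3' end fragments of Rny1, and the percent of Y RNA reads from 5' ends, in each mouse. Points are mice with their replicate number, bars are means and lines are SD (n = 4). Control replicates 3 and 4 are the highest points in the first 3 panels.

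Coverage of both RNAs was concentrated at the ends. In Rny1 the mean over all samples was highest at base 13, at 821 RPM, fell to 0.722 RPM at base 46 and reached 176 RPM at base 94 near the 3' end. In Rny3 it was highest at base 12, at 27.9 RPM, and the lowest level between the ends was 3.94 RPM, at base 50. Measured from the 5' peak, the dip was thus 1137-fold in Rny1 and 7.07-fold in Rny3. It was smaller when measured from the lower 3' peak, which in Rny3 was 17.7 RPM at base 84. In the minimum free energy fold (RNAfold), base 1 of Rny1 paired with base 108 and base 1 of Rny3 with base 98. Of the 23 paired bases in the leading 5' fragment of Rny1, 17 paired with its leading 3' fragment.

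**Figure D2:**
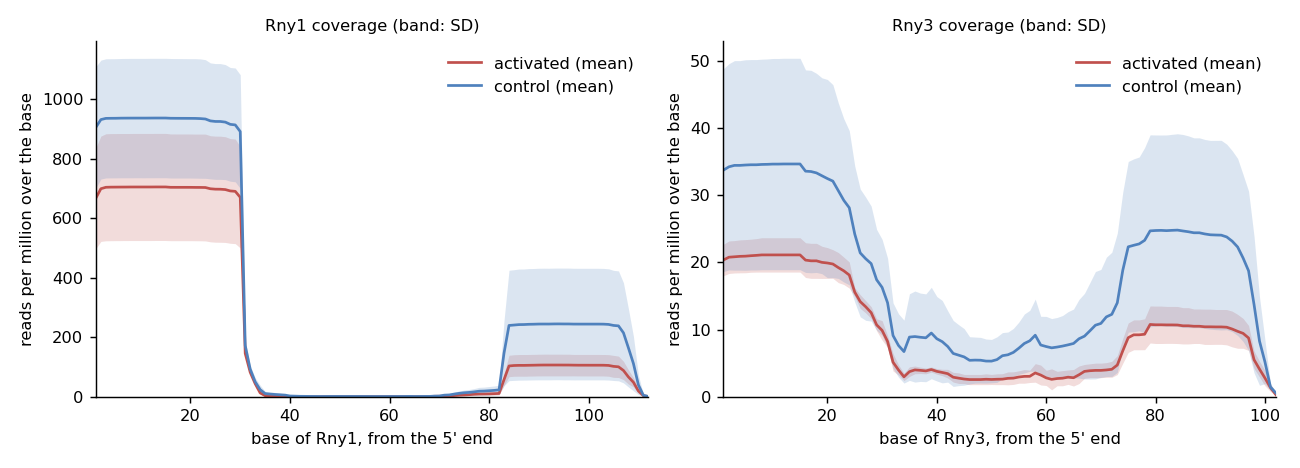
Mean RPM over each base of Rny1 and Rny3, counted from the 5' end, in activated and control sperm, with bands of 1 SD (n = 4). Reads pile up at both ends of each RNA, and the middle of Rny1 is almost bare.

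A 5' fragment was defined as one that starts in the first 5 bases, and a 3' fragment as one that ends in the last 10. Of the members, 118 were 5' fragments, 362 were 3' fragments and 209 lay between. The 5' fragments took 83.2%, 85.7%, 82.5% and 90.4% of Y RNA reads in activated samples, against 85.7%, 88.3%, 77.2% and 68.3% in control samples. Control replicates 3 and 4 had the lowest shares, and control replicates 1 and 2 lay among the activated samples. The mean difference was 5.56 percentage points (exact permutation test, p = 0.314, n = 4 per group), and 1.70 points without control replicate 4 (exact permutation test, p = 0.657). Within the first library set it was 8.46 points and within the second 2.66 points.

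The 5' fragments of Rny1 had a fixed shape. On average 95.7% ± 1.54 (SD, n = 8) of them started at base 1 and 74.8% ± 4.55 (SD, n = 8) ended at base 30. The fragment of bases 1 to 30 alone held 59.2% of the Rny1 reads. It stood at 592, 306, 422 and 640.1 RPM in activated mice and at 476, 585, 806 and 900.4 RPM in control samples, so that control replicates 3 and 4 were highest and the groups overlapped. The next were bases 1 to 31, at 69.9 RPM over all samples, bases 1 to 32, at 40.3 RPM, and bases 1 to 33, at 28.5 RPM.

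The 3' fragments of Rny1 started at base 83 or 84 in 87.4% ± 2.78 (SD, n = 8) of their reads. Their ends were scattered, with 54.4% ± 3.74 (SD, n = 8) lacking all 4 of the terminal T of the gene and 0.648% ± 0.583 (SD, n = 8) reaching its last base. They summed to 153, 72.4, 115 and 83.9 RPM in activated mice and to 103, 98.1, 281 and 494 RPM in control samples. The sums of control replicates 3 and 4 were the highest, and those of control replicates 1 and 2 lay within the activated range. The ratio of means was 0.434, or 0.660 without control replicate 4. For the 5' fragments of Rny1 the ratio was 0.753, or 0.811 without it. Sums by end were formed after the data were seen and were not tested.

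Control replicates 3 and 4 stood further above the other samples at the 3' end than at the 5' end of Rny1. Per 100 reads of 5' fragments of Rny1 there were 18.6, 14.5, 18.8 and 9.46 reads of 3' fragments in activated samples, against 14.8, 11.5, 26.6 and 43.4 in control samples. For Rny3 the corresponding numbers were 43.8, 54.5, 60.9 and 38.6 in activated samples, against 58.1, 56.5, 63.6 and 85.8 in control samples. Control replicate 4 had the highest value for each RNA.

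The ends of Rny3 fragments were more scattered. Its 5' fragments also began at base 1, in 97.7% ± 1.54 (SD, n = 8) of reads, but the most frequent last base, 31, took 14.6% ± 4.47 (SD, n = 8), followed by base 24 with 11.5% ± 4.77 (SD, n = 8). The fragment of bases 1 to 31 stood at 3.97 RPM over all samples, that of bases 1 to 24 at 3.10 RPM, and bases 1 to 25, 1 to 28 and 1 to 30 at 2.14, 2.04 and 1.91 RPM. The leading first bases of its 3' fragments were base 74 (21.8% ± 6.71, SD, n = 8) and base 75 (18.1% ± 6.34, SD, n = 8), so that on average 39.9% began at either.

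By length, Y RNA reads peaked at 30 nt, which held 56.9% of them on average. All length classes were lower in the mean of activated sperm. The ratios were 0.673 for 15 to 19 nt, 0.570 for 20 to 24 nt, 0.550 for 25 to 29 nt, 0.736 for 30 to 34 nt, 0.464 for 35 to 39 nt and 0.359 for 40 to 45 nt. In the longest class the groups did not overlap, with 6.24, 2.92, 4.95 and 3.30 RPM in activated samples, against 7.08, 7.70, 13.3 and 20.3 RPM in control samples. Its p was 0.0286, the smallest possible, and 0.171 after adjustment over the 6 classes (exact permutation test). A class that alone reaches the smallest p cannot pass after this adjustment, so the test could not decide for this class. Without control replicate 4 the ratio was 0.464, and within the library sets it was 0.341 and 0.385. This class rested on 31 to 291 reads per library. The class as a whole had a higher mean share in activated sperm, with 19.5% ± 4.17 (SD, n = 4) of all reads against 16.7% ± 3.21 (SD, n = 4) in control sperm. This share was not tested. For the other 5 classes the lowest adjusted p was 0.300 (exact permutation test). All Y RNA reads matched the genome (100% in each library). Each member is an exact match to a single exon of that genome, so this share could not differ between the groups.

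**Figure D3:**
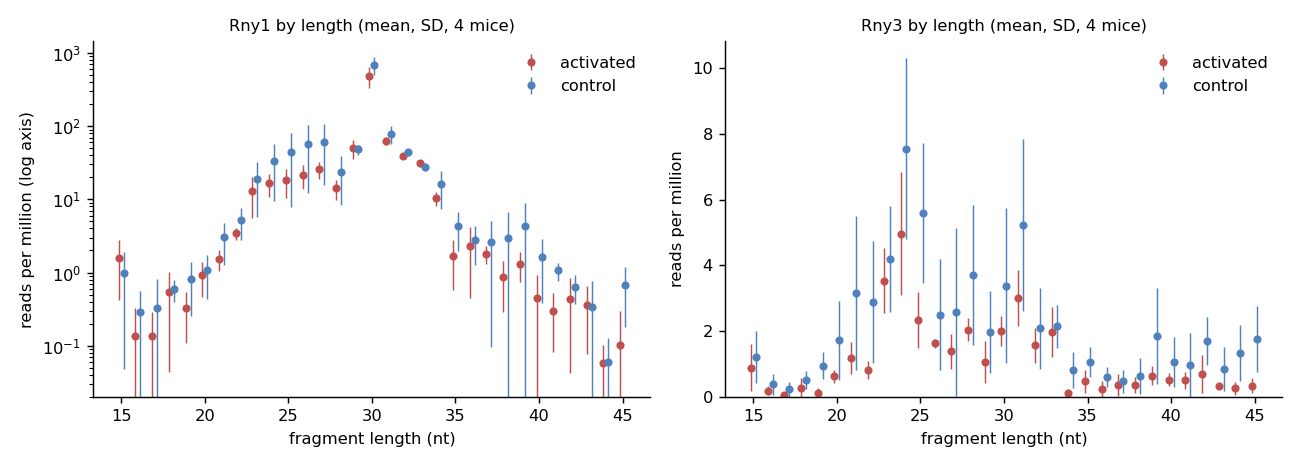
Mean RPM of Rny1 (log axis) and Rny3 fragments at each length from 15 to 45 nt in activated and control sperm, with lines of 1 SD (n = 4). Rny1 peaks at 30 nt, whereas Rny3 is spread over 20 to 33 nt.

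Of the 689 members, 20 reached 50 counts or more in 4 or more libraries and were tested singly with edgeR among 12077 fragments. They held 90.8% of the Y RNA reads, and 19 of them were from Rny1. With thresholds of 0.05 for the adjusted p and 1 for the size of the log2 change, the count called was 0 of 20, while 0.431% of all tested fragments were called. DESeq2 with apeglm likewise called 0 of 20, against 1.99% of all. At an unadjusted p under 0.05, edgeR had 3 of the 20 lower in activated sperm, against 3.76% of all tested fragments, and DESeq2 had 6 lower, against 4.12%. Without control replicate 4 edgeR had 0 of the 20, whereas 356 of all 11587 fragments tested then were lower at that p. DESeq2 was fitted with all samples only. Groups did not overlap in RPM for 0 of 20, against 3.98% of all tested fragments. Thus no single Y RNA fragment passed.

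In direction, 18 of the 20 were lower in activated sperm, with a median log2 fold change of -0.81, beside 43.7% lower and a median of 0.08 over all tested fragments. Fold changes of DESeq2, shrunken by apeglm, were smaller, with a median of -0.09 for the 20 and 0.01 over all. Members that share an end are overlapping pieces of 1 RNA and are not independent. Without control replicate 4 the edgeR median was -0.27 and 15 of 20 were lower, beside 51.9% lower and a median of -0.02 over all fragments tested then. In edgeR the 10 tested 3' fragments of Rny1 had a median of -1.42, or -0.43 without control replicate 4, and its 9 tested 5' fragments one of -0.29, or -0.08 without it. With all samples the exceptions in direction were bases 2 to 30 of Rny1, at 0.32 ± 0.37 (SE), and bases 1 to 33, at 0.20 ± 0.27 (SE).

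The lowest adjusted p belonged to bases 83 to 108 of Rny1, a 3' fragment chosen after its values were seen. It stood at 12.28, 5.15, 9.89 and 4.99 RPM in activated mice and at 15.5, 10.3, 32.6 and 55.3 RPM in control samples. Only control replicate 2 lay within the activated range. Its log2 fold change was -1.94 ± 0.64 (SE; edgeR, adjusted p = 0.509), and DESeq2 gave a shrunken one of -0.21 (adjusted p = 0.138). With a minimum of 1 count in place of 50, edgeR called it, and no other of 201 Y RNA fragments, at -1.96 (adjusted p = 0.0320). That fit called 0.722% of all its fragments, and 0.273% as lower. At an unadjusted p under 0.05 that fit, made with all samples only, had 33 of the 201 lower, against 1.68% of all. Reads in any 4 libraries were enough to enter that fit, so the control libraries alone could admit a fragment. Control replicates 3 and 4 held the most distinct Y RNA fragments (324 and 398), and many of the 201 overlap. Nothing is therefore concluded from this count. Over the alternatives the adjusted p of bases 83 to 108 in these fits ranged from 0.0320 to 0.999. Without control replicate 4 its log2 fold change in edgeR was -1.17. Bases 83 to 109, the most abundant 3' fragment, had -1.61 ± 0.66 (SE; edgeR, adjusted p = 0.647), or -0.69 without that library. Bases 1 to 30, the most abundant of all, had -0.55 ± 0.38 (SE; edgeR, adjusted p = 0.944), or -0.24 without it. Bases 1 to 31 of Rny3, the 1 tested fragment of that RNA, had -0.80 ± 0.50 (SE; edgeR, adjusted p = 0.896), or -0.29 without it.

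**Figure D4:**
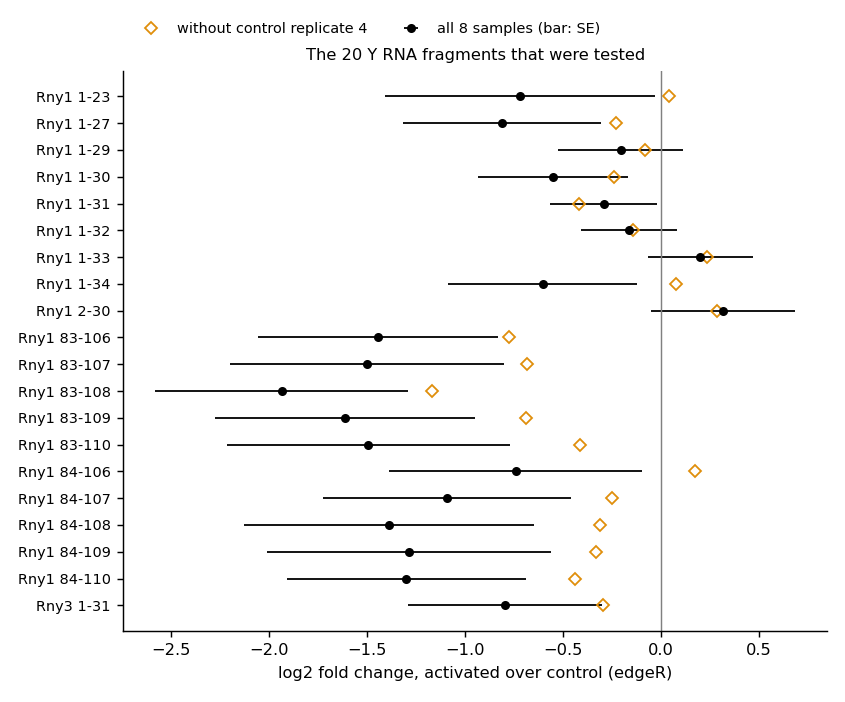
log2 fold change, activated over control, of the 20 tested Y RNA fragments, named by their first and last base, with SE bars, and the same without control replicate 4 (diamonds). The 10 fragments that start at base 83 or 84 lie below 0 with all samples. Without that library they lie nearer to 0, and bases 84 to 106 lie above it.

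Summed by annotated RNA, over fragments with reads in at least 4 libraries, both Y RNAs were again lower without passing. Among 596 RNA species edgeR called 0, that is 0%, and DESeq2 called 0.503%, neither Y RNA among them. At an unadjusted p under 0.05 edgeR had 0 of the 2 Y RNAs, against 8.39% of all species, and DESeq2 also 0, against 11.9%. The log2 fold change of Rny1 was -0.52 ± 0.29 (SE; edgeR, adjusted p = 0.581) and that of Rny3 -0.70 ± 0.37 (SE; edgeR, adjusted p = 0.572), beside a median of -0.06 over all species. Without control replicate 4 the edgeR values were -0.35 and -0.51, beside a median of 0.07 over all species. The shrunken values of DESeq2, with all samples, were -0.21 for Rny1 and -0.20 for Rny3.

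Other RNA polymerase III transcripts, which the files do not name, were found by exact match to GENCODE. 7SL, the RNA of the signal recognition particle, stood at 2728, 2778, 2976 and 2806 RPM in activated mice and at 4608, 2981, 4549 and 2165 RPM in control samples. Its order of control samples was not that of Y RNA, since control replicate 4 was the lowest. U6, of the spliceosome, gave 874, 579, 745 and 928 RPM in activated samples, against 697, 1133, 645 and 893 RPM in control samples. The ratio of means was 0.789 for 7SL, 0.928 for U6, 0.866 for 7SK, which restrains transcription elongation, 1.1 for vault RNA, 0.758 for RNase P RNA and 1.0 for RNase MRP RNA, beside 0.679 for Y RNA. Without control replicate 4 it was 0.698 for 7SL, 0.947 for U6, 0.817 for 7SK, 1.06 for vault RNA, 0.700 for RNase P RNA and 0.992 for RNase MRP RNA, beside 0.780 for Y RNA, so that Y RNA had the lowest ratio only with that library. These ratios were not tested. Per base of transcript the mean over all samples was 10.7 RPM for 7SL, 8.92 for Rny1, 7.58 for U6, 0.488 for Rny3 and 0.334 for 7SK, of fragments of 15 to 45 nt only.

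By profile over the 8 samples, the RNA species most like the Y RNA total were fragments annotated jointly as lincRNA, processed transcript and sense overlapping. Their centred log2 CPM differed from that of Y RNA by 0.20 on average. They were followed by miR-3535 with 0.21, tRNA-Ser-CGA and miR-1843b with 0.25 each and miR-1930 with 0.26. All these profiles, that of Y RNA included, rest on fragments with reads in at least 4 libraries. The likeness was partial. In control replicate 4 the leading species stood at 0.12, against 0.80 for Y RNA and 0.90 for miR-3535. In control replicate 3 miR-1843b stood at -0.28, against 0.48 for Y RNA.

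Markers of other cells differed between the same libraries. The 3 erythrocyte miRNAs, of which miR-451a was the most abundant on average, were all lower in the mean of activated sperm, with and without control replicate 4. They summed to 298, 83.5, 112.8 and 84.1 RPM in activated mice and to 235, 532, 976 and 658 RPM in control samples. Control replicates 3 and 4, the highest in Y RNA, were the highest in this sum, and activated replicate 1 lay above control replicate 1. Singly, only miR-486a was highest in those control replicates. For miR-451a control replicate 2 (365 RPM) lay above control replicate 4 (263 RPM), and miR-144 was highest in activated replicate 1 (22.5 RPM). All 7 epithelial and all 4 smooth muscle miRNAs were highest in control replicate 4, led there by miR-200c and miR-145a. Of the 4 leukocyte miRNAs, led by miR-142a, 1 was lower in activated sperm, and they summed to 862, 398, 655 and 581 RPM in activated mice and to 343, 454, 295 and 553 RPM in control samples. No marker of these lists was at 0 in any library. The part of these cells in the Y RNA values was not tested.

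**Figure D5:**
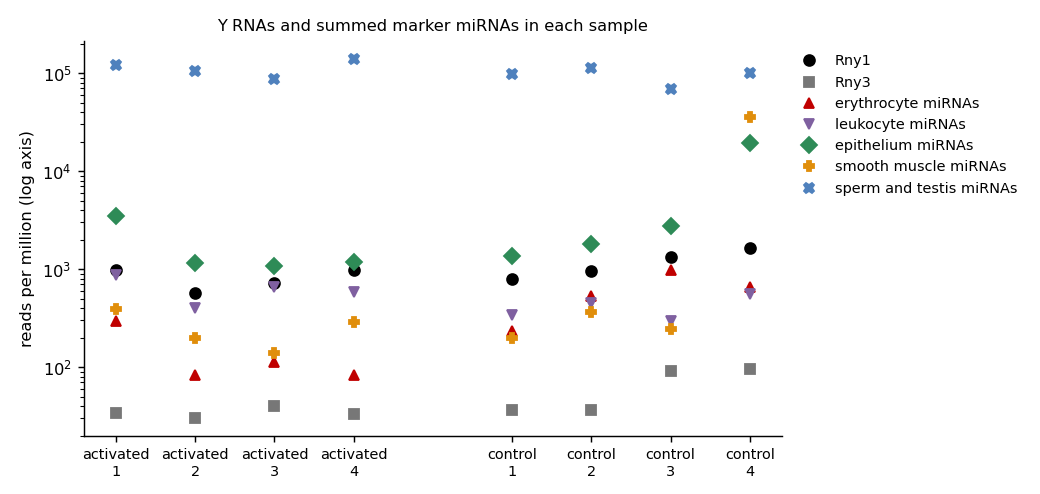
RPM (log axis) of Rny1, Rny3 and the summed miRNAs listed for 5 cell sources in each sample. Control replicate 4 stands out in smooth muscle and epithelial miRNAs, and control replicates 3 and 4 are highest in Rny1, Rny3 and erythrocyte miRNAs.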

How the data were processed

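Libraries were made by the authors from 100 ng of sperm RNA. Counts, as deposited by the authors, are raw reads of each distinct sequence of 15 to 45 nt, matched with SPORTS 1.1 at 0 mismatches to mm10 and RNA databases. Expected counts, deposited by the authors as class totals, were used only to check the sums of Y RNA reads, which were equal. Members and lists were chosen with earlier results of these data known.

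Y RNA reads were summed as RPM of the library total and compared by two-sided exact permutation tests. Annotated RNA species were summed over fragments with reads in at least 4 libraries. Fragments and annotated RNA species that reached 50 counts in 4 libraries entered edgeR 4.0.16 (TMM, quasi-likelihood, Benjamini-Hochberg adjustment) and DESeq2 1.42.0 with apeglm 1.24.0. Both ran in R 4.3.3. The SE given for edgeR was derived from its test, as the size of the log2 fold change over the square root of the F statistic. A test of edgeR on simulated data was also made, but its outcome is not reported here and no result rests on it. Sums used pandas 2.3.3 and numpy 2.4.6 in Python 3.11.15, alignment biopython 1.88, folding RNAfold 2.7.2 and plots matplotlib 3.10.9. Named were, for each Y RNA, the 5 fragments of highest mean RPM, called fragments, and those with the largest change among non-overlapping groups, of which there were 0. Alternatives were other denominators, row rules, scalings, minimums, a replicate block, library sets and leaving out each sample. Full-length Y RNA, beyond 45 nt, was not analysed here. The sequences of the transcripts and fragments are not reported here.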

Additional observations from a re-analysis of the deposited data

Results flagged for a closer look

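Single samples stood far from the other 3 of their group in 9 of 106 groups of values examined, where chance gives about 1 in 20. Among fragments of Rny1, bases 2 to 30 stood at 37.4 RPM in control replicate 2 and at 17.9 to 21.01 RPM in the other controls. Bases 84 to 107 stood at 16.6 RPM in activated replicate 1 and at 7.83 to 8.71 RPM in the rest of its group. Bases 1 to 23 stood at 8.25 RPM in activated replicate 1 and at 2.30 to 3.19 RPM in the others. Bases 1 to 34 stood at 24.8 RPM in control replicate 4 and at 8.39 to 10.3 RPM in the other controls. Bases 1 to 24 of Rny3 stood at 8.17 RPM in control replicate 3 and at 1.95 to 2.46 RPM in the other controls.

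Among markers, erythrocyte miRNAs summed to 298 RPM and epithelial miRNAs to 3476 RPM in activated replicate 1. Control replicate 4 held 19420 RPM of epithelial and 35309 RPM of smooth muscle miRNAs. The causes were not tested.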

How the results depend on the processing

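Under each alternative tried for it (19 for the total and each Y RNA, 13 for length classes and the 5' share, which had no other denominators and fewer row rules), the total, both Y RNAs and all 6 length classes stayed lower in activated sperm and the 5' share stayed higher, and none passed its test. The ratio ranged from 0.606 to 0.780 for the total, from 0.609 to 0.788 for Rny1 and from 0.462 to 0.629 for Rny3. Leaving out 1 sample at a time gave 0.611 to 0.780 for the total, highest without control replicate 4. Other row rules took in the same members, apart from the rule on counts, and so repeated the main values. The replicate block and the library sets could not pass, since the smallest p of their exact permutation tests was 0.125 and 0.333. The number of called Y RNA fragments was 0 in all alternatives except a minimum of 1 count, where it was 1 of 201, beside 0.722% of all fragments. More fragments were tested there and the cause was not tested. Of the Y RNAs as species, 0 were called throughout, while over all species DESeq2 called 3, all lower, and edgeR 0 under each alternative.

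Calls over all fragments were less stable. edgeR called 52 higher and 0 lower, and DESeq2 195 higher and 45 lower. Leaving out 1 sample at a time gave 0 to 54 calls, with 0 for 6 of the 8 samples. The replicate block and genome-matching fragments alone gave 0. A minimum of 1 count gave 1744 higher and 1059 lower, a minimum of 10 counts 256 higher and 0 lower, and the library set covariate 124 higher and 13 lower. Other scalings gave 27 and 50 higher and 0 lower.

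Leaving out 1 sample at a time turned the direction of 3 fragments of Rny1, each time without control replicate 4. The log2 fold change ranged from -0.86 to 0.076 for bases 1 to 34, from -1.18 to 0.17 for bases 84 to 106 and from -1.26 to 0.041 for bases 1 to 23.

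Deviations of samples with the same number had correlations of -0.63, -0.55, 0.59 and 0.51. In all 16 pairs of an activated and a control sample the sign followed the library set, so the values are no evidence on pairing, and no label pairs the mice. With the replicate block, 0 Y RNA fragments and 0 species were called. In edgeR 0 of the 20 Y RNA fragments then had an unadjusted p under 0.05, whereas 229 of all 12077 fragments were lower at that p. With that block the total had p = 0.25 (exact sign-flip permutation test), where the smallest possible is 0.125.

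With 4 mice a group, only the most extreme of the 70 assignments gives a p under 0.05. The smooth muscle and epithelial signal of control replicate 4, reads limited to 45 nt and amplified copies limit what the values show.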
